A study of Mus musculus with 10 samples.

Results

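Expression of Myc and of 34 genes for nucleolar ribosome biogenesis was compared between control and Villin-Wls cKO colon tumors. These 35 genes were taken by name from the 16875 gene names of the expression table. The list was drawn up with earlier results of these data known, but no measured value enters the rule. All 35 were found and passed the filter on low values, a mean of at least 0.5 FPKM (fragments counted for each kilobase of a transcript in 1000000 mapped reads), which 16757 names passed. The study asked what becomes of established colon tumors when their epithelium can no longer secrete Wnt ligands. Wls (Wntless) is the transmembrane protein that carries Wnts to the cell surface. All mice had received the carcinogen azoxymethane (AOM) and 3 cycles of 2% dextran sulfate sodium (DSS) in their drinking water, on a C57BL/6 background, and tumors were taken 120 days after AOM.

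The 5 control tumors are titled Wls WT. Controls in the paper expressed Wls and, unless otherwise indicated, had no tamoxifen. For tumors that gave organoids, the paper names Wls flox/flox as the control genotype. The 5 Villin-Wls cKO tumors carried floxed Wls alleles and Villin-Cre ERT2, a tamoxifen-inducible recombinase that the Villin promoter drives in intestinal epithelium. They were taken 30 days after the first of 5 tamoxifen injections at 80 mg/kg. Mice were 6 to 10 weeks old when the experiment began, and females were preferred. The number of mice behind the tumors is not given in the sources used here, so n counts tumors, and p-values measure the spread between tumors. Each piece was macrodissected and held stroma and immune cells beside epithelium, in which the Cre acts. In such bulk RNA, fewer cells of a type and less RNA per cell cannot be told apart. The labels give no sex for single tumors, and sex-linked RNA separated the groups as well. Xist, the RNA of the inactive X chromosome, was at least 439 FPKM in Villin-Wls cKO tumors, up to 701, and at most 0.420 FPKM in controls. Eif2s3y of the Y chromosome was at most 0.138 FPKM in the former and at least 30.4 FPKM in the latter. Genotype, tamoxifen and sex therefore cannot be told apart in any difference given here.

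Myc is a transcription factor of growth and proliferation, and in intestinal epithelium the MYC gene is a classical target of Wnt/β-catenin signaling. It binds DNA with its partner Max at E-boxes and raises transcription of many genes that build ribosomes. Ribosomes are assembled in the nucleolus, where RNA polymerase I transcribes the ribosomal DNA (rDNA), small nucleolar ribonucleoprotein particles (snoRNPs) guide methylation and pseudouridylation of the transcript, and assembly factors process it into the small (40S) and large (60S) subunit.

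Wls itself averaged 72.9 ± 7.06 FPKM (SD, n = 5) in control tumors and 6.37 ± 4.89 FPKM in Villin-Wls cKO tumors. The FPKM of a control tumor added up to 1265992 to 1533885 and those of a Villin-Wls cKO tumor to 1207683 to 1341494, and the number of reads is unknown. One entry, Eef1a1, accounted for 11.1% to 20.5% of this sum. The name Gm26377 had identical values, so the same level entered the sum under both names. Changes are therefore given both for FPKM as deposited and after each tumor was rescaled to a sum of 1000000. Where a sum without Eef1a1 is named, both names were left out of it. Markers of epithelium, the tissue on the label, were present in every tumor, with a summed level of 10 genes between 6902 and 9763 FPKM in controls and between 8384 and 10338 FPKM in Villin-Wls cKO tumors. Of these 10 genes, 9 had a log2 change (Villin-Wls cKO minus control) above 0 as deposited, against 51.4% of all genes tested. Their median change was 0.18 as deposited and 0.29 rescaled. Limma, a linear model fitted over all genes, called 0 of them at an adjusted p under 0.05 as deposited. After rescaling it called 1 higher. Some markers of other cell types differed between the groups. At that threshold 4 of 8 goblet cell genes were higher in Villin-Wls cKO tumors. Their summed level was between 2679 and 12233 FPKM in controls against 23182 to 28643 FPKM. Of 7 T cell genes 4 were higher, with sums from 4.44 to 9.73 FPKM against 9.86 to 22.3 FPKM. Squamous keratin and related genes, which colon mucosa lacks, summed to between 54.9 and 214 FPKM in controls and between 32.7 and 1305 FPKM in Villin-Wls cKO tumors, the highest being tumors 2 and 3. In the other 8 tumors the defining squamous markers Krt5 and Trp63 were at or near 0. The part of any of these cell types in the values of the nucleolar genes was not tested.

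The 35 genes spanned a wide range of levels. FPKM is scaled by transcript length, so levels of different genes can be set side by side, except where values are shared with other names (below). At the top stood nucleolin (Ncl), with 154 ± 22.6 FPKM in control tumors, the box C/D protein Nop58 with 143 ± 17.0, nucleophosmin (Npm1) with 140 ± 13.1 and the box H/ACA protein Nhp2 with 125 ± 14.7 (SD, n = 5 each). Neighbors among the first 3 of these differed by less than 1 SD. At the bottom stood the large processome proteins Heatr1, Utp20 and Rrp12 and the 60S factor Wdr12, with control means of 8.14, 6.53, 5.59 and 6.31 FPKM. Myc, at 63.2 ± 10.1 FPKM in controls, was the seventh highest by mean over all tumors. Together the 35 genes held 0.104% to 0.117% of all FPKM in a control tumor and 0.106% to 0.139% in a Villin-Wls cKO tumor.

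**Figure D1:**
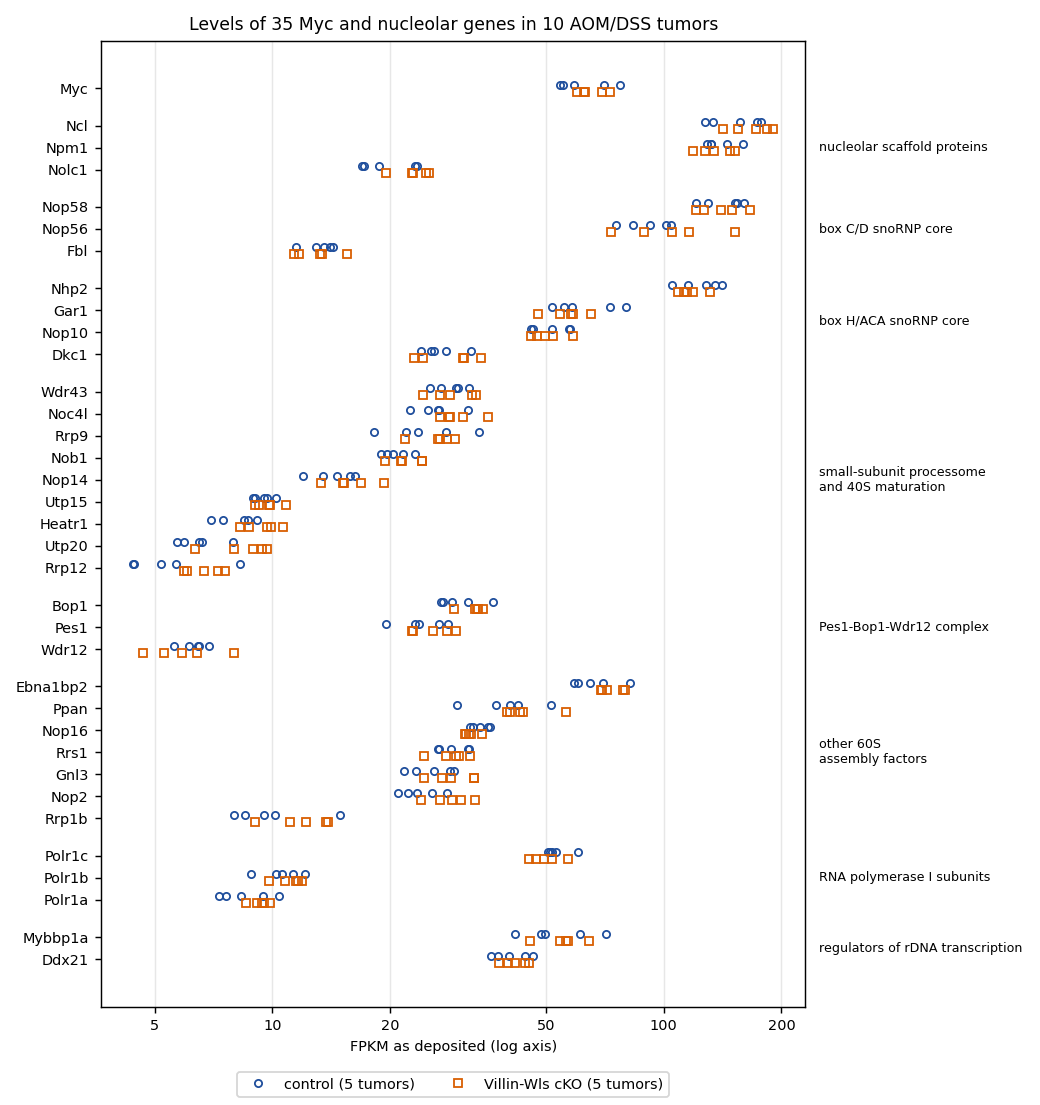
Level of each of the 35 genes (rows, grouped by role) in FPKM on a log axis, with 1 circle for each of 5 control tumors and 1 square for each of 5 Villin-Wls cKO tumors. Circles and squares of every gene overlap, and the genes range from Rrp12 at 4.41 FPKM to Ncl at 191 FPKM.

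Some levels stand for more than one gene name. The values of Nop56 were identical in every tumor to those of 4 small RNA genes (Gm23187, Snord57, Gm23650 and Gm24451), those of Ncl to Snora75 and mmu-mir-3535, those of Nop58 to Gm26293 and those of Ppan to Gm24067. In the GENCODE M21 annotation (GRCm38), 7 of the 35 genes hold 22 small RNA genes on their own strand, the snoRNA host genes Nop56, Ncl and Nop58 among them. A further limit is that 11 of the 35 overlap another protein-coding gene. The libraries were stranded, but whether strand was used in quantification is not given in the sources used here, and reads of such pairs may not be told apart.

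Myc did not differ detectably between the groups. It measured 77.1, 70.6, 54.3, 58.9 and 55.2 FPKM in control tumors 1 to 5 and 62.6, 72.9, 59.97, 69.6 and 62.9 FPKM in Villin-Wls cKO tumors 1 to 5. All Villin-Wls cKO values lay within the range of the controls, whose tumor 1 was the highest of all. The log2 change of FPKM + 1, Villin-Wls cKO minus control, was 0.063 ± 0.11 (SE), with a 95% interval from -0.17 to 0.30 and an adjusted p of 0.773 in limma. After rescaling it was 0.17, with an interval from -0.098 to 0.43 and an adjusted p of 0.424. Its sign depended on the scaling, since quantile normalization gave -0.010 and a sum without Eef1a1 gave -0.076. The gene lies at chr15:61985391-61990374 (GRCm38, plus strand) and overlaps no other protein-coding gene in that annotation.

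None of the 35 genes passed an adjusted p of 0.05 in limma, 0 higher and 0 lower, where 6.12% of all genes tested were called higher and 4.75% lower. At an unadjusted p under 0.05, 2 were higher (13.9% of all genes) and 0 lower (11.9%). For 0 of them did all Villin-Wls cKO values lie above all control values (5.33% of all genes), and for 0 did they lie below (4.76%). The log2 change was above 0 for 25 of 35 genes, against 51.4% of all genes tested, and its median was 0.087, against 0.0073 over all genes. Single tumors moved this median by over 1.5 times, to 0.050 without Villin-Wls cKO tumor 2, 0.055 without control tumor 5 (21 genes above 0), 0.13 without control tumor 3 and 0.14 without control tumor 1 (29 genes above 0). The single genes ranged from -0.15 for Gar1 to 0.32 for Utp20, and their 95% intervals all lay between -0.44 and 0.60. By comparison, the 5th and 95th percentile of all genes tested were -0.56 and 0.86.

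After rescaling, 0 genes were again called higher (8.27% of all genes) and 0 lower (2.46%), and the smallest adjusted p was 0.0724, for Utp20. At an unadjusted p under 0.05, 10 were higher (19.7%) and 0 lower (5.93%). No gene had groups that did not overlap, 0 higher (8.51%) and 0 lower (2.24%). The change was above 0 for 34 of 35, all but Gar1, where 66.9% of all genes were above 0. The median of the 35 moved to 0.19 and that of all genes to 0.097, so that the distance between both medians, 0.080 as deposited, was 0.089. With the sum taken without Eef1a1, both turned below 0, to -0.047 for the 35 genes and -0.12 for all genes, and 12 of the 35 were above 0. Rescaling each tumor by its median ratio gave a median of 0.079 (25 above 0) and quantile normalization 0.041 (21 above 0). Only the sum without Eef1a1, chosen after seeing the data, turned the median of the 35 below 0. The number above 0 thus depended on the scaling. The distance between both medians was 0.068 without Eef1a1, and 24 or 25 of the 35 lay above the median of all genes in each of these scalings. Without Villin-Wls cKO tumors 2 and 3, 0 were called and the median was 0.045.

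**Figure D2:**
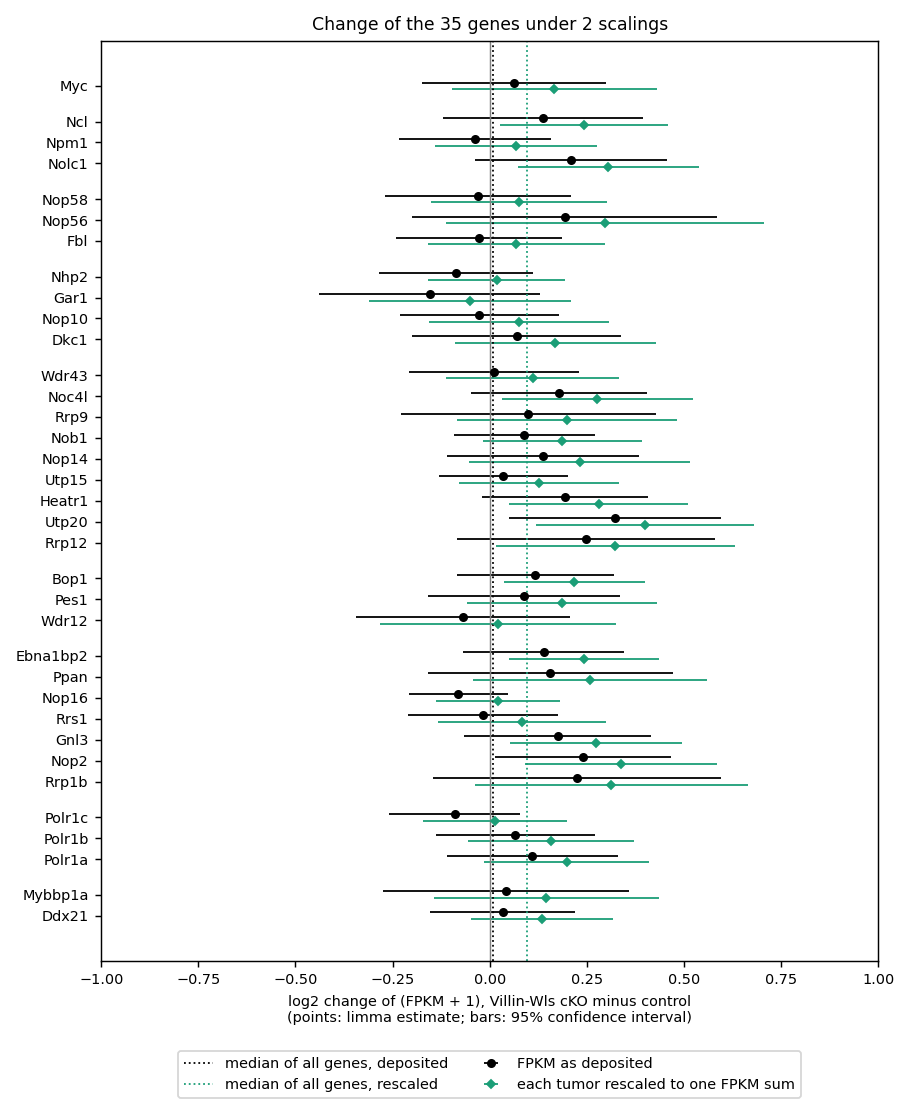
Log2 change of FPKM + 1, Villin-Wls cKO minus control, for each of the 35 genes (rows), with limma 95% intervals as bars. Black circles show deposited FPKM and green diamonds tumors rescaled to 1 sum, with dotted lines at the median of all genes (0.0073 and 0.097), and the rescaled values lie to the right of the deposited ones, whereas a sum without Eef1a1 puts the median of the 35 at -0.047.

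Utp20 and Rrp12, the genes with the 2 largest positive changes, belong to those for the small-subunit processome, the particle that cleaves and folds the precursor of 40S subunits, and for 40S maturation. All 9 of these genes had a change above 0 under both scalings, with a median of 0.14 as deposited and 0.23 rescaled, and none passed the adjusted threshold. Utp20, a large scaffold protein of the processome, measured 5.69, 5.95, 7.91, 6.62 and 6.48 FPKM in control tumors 1 to 5 and 7.97, 6.32, 8.90, 9.38 and 9.70 FPKM in Villin-Wls cKO tumors 1 to 5. Of the latter, all but tumor 2 were above every control. The log2 change was 0.32 ± 0.12 (SE), with an interval from 0.049 to 0.60 and an adjusted p of 0.128 in limma. Without Villin-Wls cKO tumor 2, the one that overlapped, it was 0.41 with an adjusted p of 0.0408 in limma. Leaving out the lowest value of that group raises the change by construction, so this call gives no independent support. In that fit 979 of 16757 genes were called higher. It was the only setting of 24 in which Utp20 was called.

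Rrp12, a HEAT-repeat protein needed for export of both subunits, was at 5.68, 5.17, 8.27, 4.41 and 4.44 FPKM in controls and 6.67, 7.56, 7.26, 6.06 and 5.93 FPKM in Villin-Wls cKO tumors. Control tumor 3 was the highest of all, and the other control values lay below every Villin-Wls cKO value. The change was 0.25 ± 0.15 (adjusted p = 0.337, limma). Without that control tumor the groups of Rrp12 and of Noc4l did not overlap, as for 1381 of 16757 genes that were higher. It was the only control that overlapped for either gene, so leaving it out gives this outcome by construction. Heatr1, which acts both in the processome and in rDNA transcription, averaged 8.14 ± 0.891 FPKM in controls and 9.45 ± 0.945 FPKM in Villin-Wls cKO tumors, a log2 change of 0.19 (adjusted p = 0.240, limma). Noc4l and Nop14, partners of each other in 40S assembly, had changes of 0.18 and 0.14. For Rrp9, a protein of the U3 snoRNP, it was 0.10, for Nob1, the endonuclease that makes the mature end of the 40S RNA, 0.089, for Utp15 0.035 and for Wdr43 0.0099. Of these processome genes Rrp9, Nob1, Utp15 and Wdr43 turned to values between -0.13 and -0.035 when the sum was taken without Eef1a1.

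The snoRNP core proteins gave no common direction. Fibrillarin (Fbl), the methyltransferase of box C/D particles, averaged 13.2 ± 1.11 FPKM in controls and 13.0 ± 1.64 in Villin-Wls cKO tumors, and its partner Nop58 143 ± 17.0 and 141 ± 18.2 FPKM. The changes of Fbl and Nop58 were -0.028 and -0.029 as deposited, and 0.068 and 0.076 rescaled. Nop56, the third protein of the particle, was the most variable of the 35 genes within groups. It measured 92.1, 83.7, 104, 102 and 75.8 FPKM in control tumors and 116, 152, 73.2, 105 and 88.8 FPKM in Villin-Wls cKO tumors, so that tumors 2 and 3 of the latter group were the highest and the lowest of all. Its change of 0.19 had an interval from -0.20 to 0.59. In every tumor Fbl was thus well below both of its partners in FPKM, though the values of Nop56 and Nop58 also stand for small RNA genes.

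Of the 4 box H/ACA proteins, which carry out pseudouridylation, 3 had a change below 0 as deposited, with a median of -0.057, and 1 had a change below 0 after rescaling, with a median of 0.047. Gar1 was the lowest of the 35 genes, with 72.9, 51.8, 80.01, 58.5 and 55.7 FPKM in controls and 58.7, 65.0, 54.3, 57.8 and 47.7 FPKM in Villin-Wls cKO tumors. The 2 highest values were controls and the lowest a Villin-Wls cKO tumor, but the change of -0.15 ± 0.13 was within the spread (adjusted p = 0.502, limma). It stayed below 0 in all 24 other settings, between -0.29 and -0.050. Nhp2 and Nop10, small structural proteins of the particle, were at -0.087 and -0.027, and dyskerin (Dkc1), its pseudouridine synthase, at 0.069.

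Among the proteins that organize the nucleolus, Npm1 had a log2 change of -0.037 and Ncl one of 0.14. Nolc1, a chaperone of snoRNPs, averaged 19.8 ± 3.17 FPKM in controls and 23.0 ± 2.21 FPKM in Villin-Wls cKO tumors, and 3 of the 5 controls lay below every Villin-Wls cKO tumor. Its change of 0.21 had an adjusted p of 0.275 in limma, and 0.31 after rescaling had one of 0.0956.

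Pes1, Bop1 and Wdr12 form a complex needed to process the large-subunit RNA. As deposited they differed by less than the spread between tumors, with changes of 0.087, 0.12 and -0.069. After rescaling the changes were 0.19, 0.22 and 0.021. The rescaled interval of Bop1 ran from 0.036 to 0.40 (adjusted p = 0.122, limma). Of the other 7 factors of 60S assembly, 5 had a change above 0 as deposited, with a median of 0.16. Nop2, a methyltransferase of the large-subunit RNA, measured 25.6, 23.5, 28.0, 22.2 and 20.9 FPKM in controls and 28.8, 32.9, 26.8, 30.4 and 24.0 FPKM in Villin-Wls cKO tumors. Tumors 1, 2 and 4 of the latter were above every control, and the other 2 lay within their range. The change was 0.24 ± 0.10, with an interval from 0.013 to 0.47 and an adjusted p of 0.171 in limma. Rrp1b had a change of 0.22 ± 0.17, nucleostemin (Gnl3), a GTP-binding protein of the nucleolus, of 0.17, Ppan of 0.16 and Ebna1bp2 of 0.14, while Rrs1 was at -0.018.

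Nop16 was the steadiest of the 35 genes, between 32.1 and 36.0 FPKM in controls and between 31.1 and 34.2 FPKM in Villin-Wls cKO tumors. Its change was -0.081 as deposited and 0.021 rescaled. With the sum taken without Eef1a1 it was -0.22 and passed the threshold (adjusted p = 0.0493, limma), the only one of the 35 to be called lower in any setting. In that scaling 1799 of 16757 genes were called lower and 772 higher.

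As deposited, RNA polymerase I and the regulators of rDNA transcription differed by less than the spread between tumors. The largest subunits, Polr1a and Polr1b, averaged 8.60 ± 1.29 and 10.6 ± 1.22 FPKM in controls and 9.30 ± 0.491 and 11.1 ± 0.845 FPKM in Villin-Wls cKO tumors, with changes of 0.11 and 0.065. Polr1c, which RNA polymerase III shares, stood higher at 53.4 ± 4.00 and 50.2 ± 4.45 FPKM, with a change of -0.090. For the RNA helicase Ddx21 it was 0.033 and for Mybbp1a, a Myb-binding protein of the nucleolus, 0.042. After rescaling the 5 changes lay between 0.013 and 0.20, the largest being that of Polr1a, with an interval from -0.014 to 0.41.

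How many of the 35 genes were above their own median over the 10 tumors differed from tumor to tumor within both groups. As deposited, the number was 29 in control tumor 3 and 5 in control tumor 5 (82.9% and 14.3%), where 53.9% and 48.6% of all genes tested were above theirs. Among Villin-Wls cKO tumors the number was 30 in tumor 1, 29 in tumor 2, 20 in tumor 3, 16 in tumor 4 and 7 in tumor 5. Averaged over the 35 genes, the deviation from each gene's mean (log2 scale) ran from -0.19 to 0.14 in controls and from -0.11 to 0.16 in Villin-Wls cKO tumors, so that the groups overlapped over most of their range. Their means were -0.039 ± 0.13 and 0.039 ± 0.10 (SD, n = 5).

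Rescaling changed the order of the tumors. In control tumor 1 the number of the 35 above their own median went from 22 to 3, and in Villin-Wls cKO tumor 4 from 16 to 32, while the share of all genes tested went from 45.8% to 20.6% and from 49.6% to 69.6%. Control tumor 1, whose mean deviation was 0.052 as deposited, was at -0.14 and became the lowest. Villin-Wls cKO tumor 2 was then highest for 24 of the 35 genes, at a mean of 0.26, and controls ran from -0.14 to 0.035 against -0.087 to 0.26. Tumor 2 is also one of the pair with squamous keratin, and without both of these tumors the median change of the 35 genes was 0.045 as deposited. Within groups the 35 genes had a median SD of 0.16 on the log2 scale, against 0.21 for all genes tested and 0.18 for the 10284 genes in the same range of levels. The lowest was 0.064 for Nop16 and the highest 0.31 for Nop56.

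**Figure D3:**
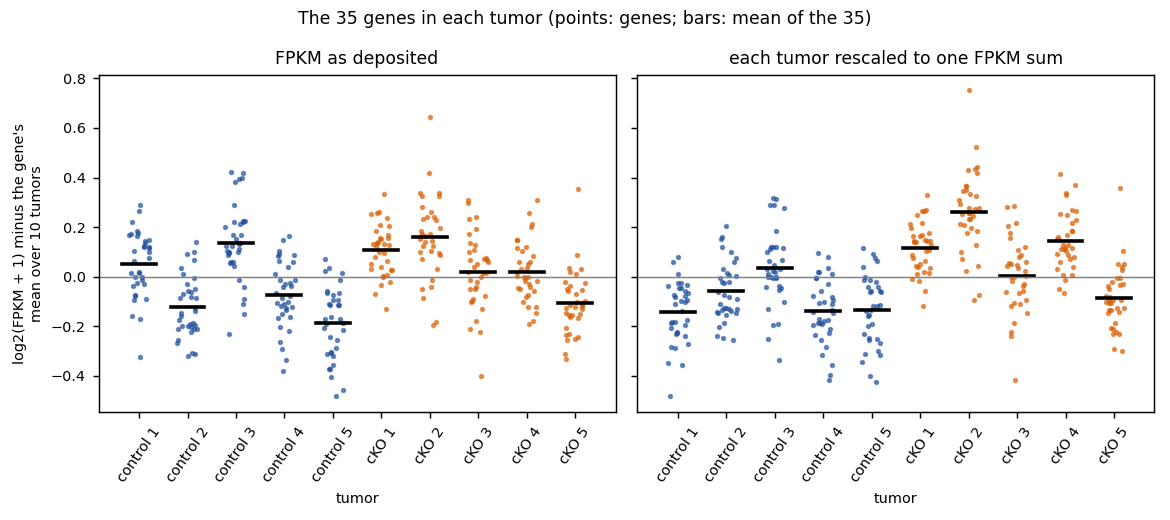
Deviation of each of the 35 genes from its own mean over 10 tumors, in log2(FPKM + 1), by tumor (points, genes; bars, mean of the 35), for deposited FPKM on the left and rescaled FPKM on the right. Bars of both groups overlap, from -0.19 to 0.14 in controls and -0.11 to 0.16 in Villin-Wls cKO tumors as deposited, and Villin-Wls cKO tumor 2 is highest at 0.26 after rescaling.

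The DNA near the starts of these genes was searched for the E-box that Myc and Max bind, CACGTG, whose reverse complement is the same. RefSeq promoter windows (GRCm38.p6), from 250 bases before to 50 after the first transcribed base, were at hand for 29 of the 35 genes, and Myc was not among these. The motif was present for 5 of the 29 (17.2%), against 11.3% of 10762 genes of the expression table and 8.09% of all 27025 genes with a window. The 5 windows of 30 bases are shown because they join the Myc motif to the genes measured here, with the E-box in capitals.

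Mybbp1a: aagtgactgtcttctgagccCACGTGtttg
Nop2: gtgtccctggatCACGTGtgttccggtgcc
Pes1: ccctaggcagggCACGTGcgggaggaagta
Utp20: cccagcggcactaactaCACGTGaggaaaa
Wdr43: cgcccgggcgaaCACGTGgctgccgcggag

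All are given 5′ to 3′ on the strand of the gene. They lie at chr11:72441347-72441376 (plus strand), chr6:125131811-125131840 (plus), chr11:3963965-3963994 (plus), chr10:88826765-88826794 (minus) and chr17:71616220-71616249 (plus), in the order of the list. In GENCODE M21 the motif of Nop2 is upstream of the gene, 60 bases before the RefSeq start, and the other 4 are in exons, in untranslated sequence. The motif of Pes1 also lies within 4930556J24Rik, a gene of the opposite strand. These 5 genes include Utp20 and Nop2, the only members with an unadjusted p under 0.05 as deposited, and also Wdr43, whose change of 0.0099 was the nearest to 0 of all 35. After rescaling, 10 members had an unadjusted p under 0.05 in limma. Of the 5 genes with the motif, only Utp20 and Nop2 were among them. As deposited, the median change was 0.087 for the 5 genes with the motif and 0.094 for the 24 without it.

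Other genes of ribosome biogenesis, grouped by role, likewise held few calls. Of 43 further genes of the small-subunit processome and 40S assembly, 6 were higher and 3 lower at an unadjusted p under 0.05 in limma. The shares over all genes were 13.9% and 11.9%. The median change of the 43 was 0.048, and 16 were below 0. Past the adjusted threshold 1 was higher and 0 lower, against 6.12% and 4.75% of all genes. The called gene was Utp11l, another processome protein. It measured between 16.2 and 18.7 FPKM in controls and between 20.8 and 23.0 FPKM in Villin-Wls cKO tumors. The groups did not overlap, and the change was 0.28 ± 0.062 (adjusted p = 0.0162, limma). That call was lost with a sum without Eef1a1 and without Villin-Wls cKO tumors 2 and 3, and held in 22 of 24 settings.

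Of 42 further genes of 60S assembly, 2 were higher and 1 lower at an unadjusted p under 0.05 in limma. Of these 42 genes, 1 was called higher and 0 lower, with a median of 0.042. Rrp15 was this gene, at 13.7 ± 1.04 FPKM in controls and 18.1 ± 2.56 FPKM in Villin-Wls cKO tumors, a change of 0.36 ± 0.10 (adjusted p = 0.0449, limma), and its call held in 12 of 24 settings, ending when any tumor but control 3 or Villin-Wls cKO 5 was left out. Of 13 other genes for subunits and factors of RNA polymerase I, 0 were called in limma, with 0 higher and 1 lower at an unadjusted p under 0.05, and a median of 0.029. The 76 proteins of the cytosolic ribosome also had 0 calls in either direction, with 1 higher and 3 lower at an unadjusted p under 0.05 in limma, and a median of -0.016 as deposited and 0.085 rescaled. After rescaling, Imp4, a processome protein chosen here after its value was seen, joined Utp11l and Rrp15, and no other gene of these 4 lists was called. Of 18 genes of DNA replication and mitosis, 0 passed under either scaling, with 0 at an unadjusted p under 0.05 in limma as deposited and 2 rescaled, and a median of 0.029.

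**Figure D4:**
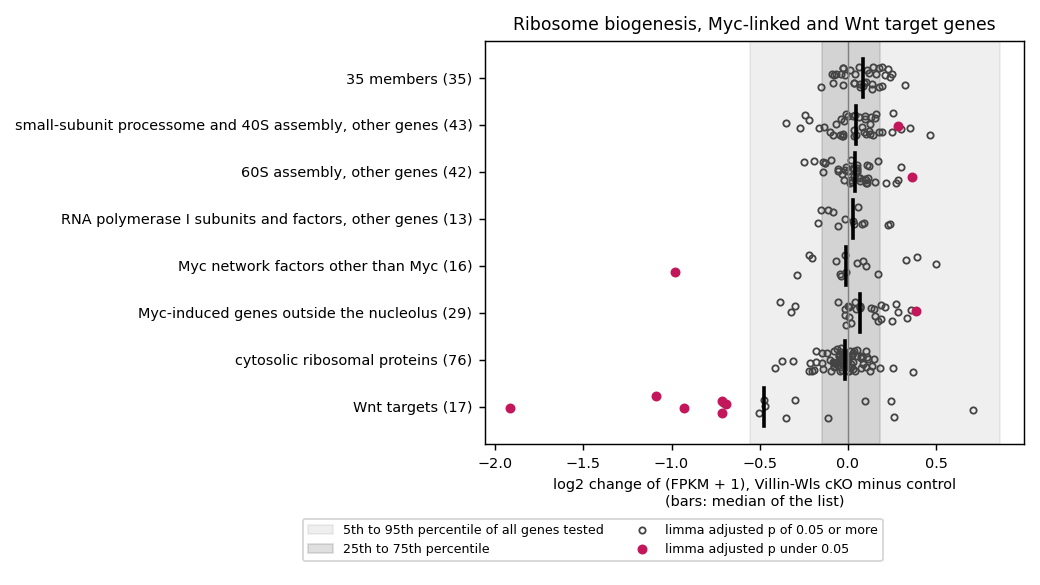
Log2 change of FPKM + 1, Villin-Wls cKO minus control, for single genes (circles) of 8 lists, with the number of genes in brackets, the list median as a black bar and filled circles for an adjusted p under 0.05 in limma. Grey bands show the spread of all genes tested, from -0.56 to 0.86 between the 5th and the 95th percentile, and the ribosome lists center near 0 (their small medians move with the scaling), while the Wnt targets have a median of -0.47.

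Among 29 genes that Myc induces outside the nucleolus, 1 was called higher and 0 lower, with a median of 0.066. The call was lactate dehydrogenase A (Ldha), at 354 ± 49.2 FPKM in controls and 461 ± 44.2 FPKM in Villin-Wls cKO tumors, a change of 0.38 ± 0.11 (adjusted p = 0.0437, limma) that held in 12 of 24 settings. It was lost without control tumor 1, 2, 4 or 5 or without Villin-Wls cKO tumor 1, 3 or 5, each left out alone. Odc1, the first enzyme of polyamine synthesis and a direct Myc target, averaged 24.1 ± 4.66 and 30.3 ± 2.77 FPKM, and its change of 0.33 had an adjusted p of 0.120 as deposited and 0.0328 after rescaling. Without control tumor 3 it was also called, at a change of 0.42.

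Mycl, a relative of Myc, was lower in Villin-Wls cKO tumors. Of 16 other members of the Myc network, 1 was called lower as deposited and 0 higher. Mycl, whose protein also pairs with Max, measured 52.4, 54.1, 45.8, 39.5 and 28.0 FPKM in control tumors 1 to 5 and 22.7, 23.3, 20.7, 17.9 and 21.8 FPKM in Villin-Wls cKO tumors 1 to 5. Every Villin-Wls cKO tumor was below every control, and control tumor 5 was the nearest to them. The change was -0.98 ± 0.16 (adjusted p = 0.00438, limma), and in all 24 other settings it was called, between -1.13 and -0.87. Mycn, the third gene of the family, was low at 5.27 ± 2.41 and 3.95 ± 1.04 FPKM, with a change of -0.29 (adjusted p = 0.519, limma). Max, the common partner, was at 74.0 ± 6.60 and 72.3 ± 11.4 FPKM, with a change of -0.041 that turned to 0.062 after rescaling. Mxd1, which pairs with Max against Myc and marks differentiated cells, was at 59.4 ± 14.5 and 83.2 ± 14.5 FPKM, with a change of 0.50 (adjusted p = 0.112, limma). Mlx, a partner of glucose-responsive relatives of Myc and named here after its value was seen, was the only network gene called higher after rescaling, at 0.49 (adjusted p = 0.0211, limma).

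Of 17 direct targets of Wnt/β-catenin signaling, a list that does not hold Myc, 6 were called lower and 0 higher under both scalings, with a median of -0.47 as deposited and -0.37 rescaled. Apcdd1, a membrane inhibitor of the pathway, fell by 1.92 on the log2 scale, from 319 ± 39.0 to 90.2 ± 33.6 FPKM (adjusted p = 0.00269, limma), and Tcf7, one of the factors that β-catenin binds, fell by 1.09. Axin2, a scaffold of the complex that degrades β-catenin, was at 162, 172, 144, 141 and 173 FPKM in controls and 108, 96.3, 78.6, 100.2 and 99.4 FPKM in Villin-Wls cKO tumors, and fell by 0.71. All 3 genes were below every control in every Villin-Wls cKO tumor. Not all of the list had values below 0. Named after their values were seen, the stem cell receptor Lgr5 was at 0.71, Cd44 at 0.26, Ephb2 at 0.24 and Ephb3 at 0.098, with adjusted p between 0.119 and 0.856 in limma.

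Ratios within each tumor, which a common scaling factor hardly touches, set Myc against these genes directly. The log2 ratio of Myc to Axin2 was -1.32 ± 0.21 in controls and -0.55 ± 0.17 in Villin-Wls cKO tumors (SD, n = 5), a difference of 0.77 (two-sided exact permutation test, p = 0.00794). For Myc to Mycl it was 0.54 ± 0.27 and 1.58 ± 0.19, a difference of 1.04 (exact p = 0.00794). That is the smallest p that 252 arrangements allow, and it stays 0.00794 after adjustment over the 2 ratios. The groups did not overlap in either ratio. With each tumor left out in turn, with another pseudocount, with rescaling and without Villin-Wls cKO tumors 2 and 3, the differences ran from 0.67 to 0.84 and from 0.96 to 1.15, with p at most 0.0357. The pairs were chosen with the values of these genes known, Axin2 and Mycl having groups that did not overlap. The adjustment over 2 ratios does not cover that choice, so these p-values give no independent support. A ratio shows that 2 genes changed unequally, not that Myc did not change.

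**Figure D5:**
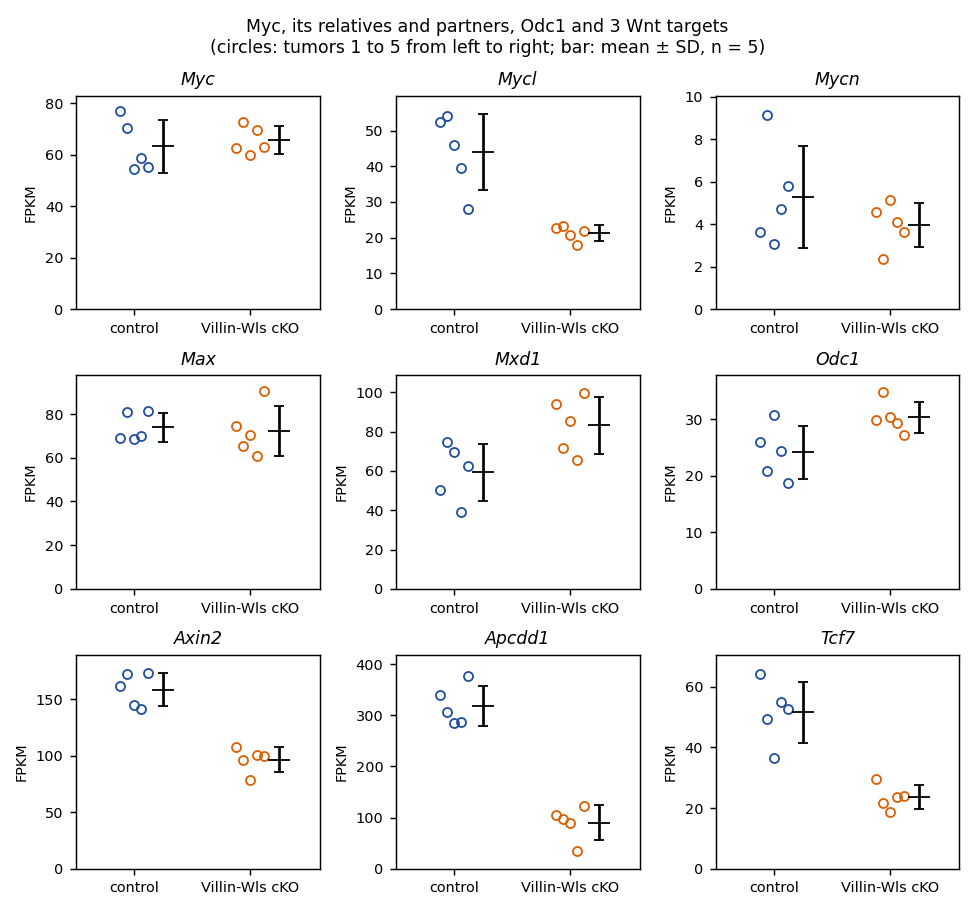
FPKM of Myc, Mycl, Mycn, Max, Mxd1, Odc1, Axin2, Apcdd1 and Tcf7 in 5 control and 5 Villin-Wls cKO tumors (circles, tumors 1 to 5 from left to right; bars, mean ± SD, n = 5). Both groups of Myc lie between 54.3 and 77.1 FPKM, while Mycl, Axin2, Apcdd1 and Tcf7 are lower in every Villin-Wls cKO tumor than in any control.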

How the data were processed

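Messenger RNA of 10 macrodissected AOM/DSS colon tumors had been sequenced from stranded libraries. Per the labels, the authors used FastQC, TopHat2 2.1.1, Cufflinks 2.2.1 and Cuffdiff with GRCm38.p5 and deposited FPKM for each tumor and 16875 gene names. The annotation release is not given in the sources used here. Depth is unknown: among 1050 names with low values at most 5 shared one ratio between tumors within 0.1%, so whole reads were not recovered, and precision rests on the spread between 5 tumors.

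Groups came from the labels. Log2(FPKM + 1) of the 16757 names with a mean FPKM of at least 0.5 was compared with limma 3.58.1 in R 4.3.3 (eBayes with trend, two-sided, Benjamini-Hochberg over all genes tested, adjusted p under 0.05), as deposited and with each tumor rescaled to a sum of 1000000. The fit was tested on simulated data. Ratios were tested with scipy 1.17.1, summaries used pandas 2.3.3 and numpy 2.4.6 under Python 3.11.15, and figures were drawn with matplotlib 3.10.9. Of the names, 2419 shared all values with another.

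The genes, roles and further lists were chosen with earlier results of these data known. Named are the 35 genes, up to 2 called genes in each direction of each further list, Mycl, Mycn, Max, Mxd1, Odc1 and the genes that check the labels. Alternatives were another pseudocount, 4 other scalings, other filters, eBayes without trend or robust, tumor weights, a replicate block, a squamous covariate, identical names counted once, each tumor left out, and Villin-Wls cKO tumors 2 and 3 left out. The scaling without Eef1a1, whose sum also left out Gm26377, and the settings of the ratios were chosen after seeing the data.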

Additional observations from a re-analysis of the deposited data

Results flagged for a closer look

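Of 70 groups of 5 values, 1 for each gene and genotype, 3 held a tumor far from the other 4, by a gap of over 0.71 of the whole range of the group, where chance gives about 5%. Bop1 was 29.1 FPKM in Villin-Wls cKO tumor 4 and between 33.0 and 34.6 FPKM in the others of that group. Ppan was 56.3 FPKM in Villin-Wls cKO tumor 2 and between 39.7 and 43.7 FPKM in the others. Polr1c was 60.4 FPKM in control tumor 3 and between 50.6 and 53.0 FPKM in the others.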

How the results depend on the processing

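Changes of this size depended on the scaling. As deposited, 0 of the 35 genes were called with a median change of 0.087. Rescaled, the values below 0 that turned above it were Npm1 0.068, Fbl 0.068, Nop58 0.076, Nhp2 0.018, Nop10 0.076, Wdr12 0.021, Nop16 0.021, Polr1c 0.013, Rrs1 0.084 and, outside the 35, Max 0.062. With the sum taken without Eef1a1, the median of all genes moved to -0.12 and that of the 35 to -0.047, 1 gene (Nop16) was called lower, and Myc was at -0.076, Ncl -0.0021, Dkc1 -0.066, Rrp9 -0.035, Wdr43 -0.13, Pes1 -0.047, Bop1 -0.018, Polr1a -0.016, Polr1b -0.063, Utp15 -0.092, Ddx21 -0.10, Nob1 -0.046 and Mybbp1a -0.095. Quantile normalization gave Myc -0.010, Wdr43 -0.039, Ddx21 -0.010 and Mybbp1a -0.017, tumor quality weights gave Nop58 0.020 and Rrs1 0.013, and a squamous covariate gave Nop58 0.0047, Dkc1 -0.019, Wdr43 -0.017, Mybbp1a -0.033 and Max 0.0045. Without Villin-Wls cKO tumors 2 and 3, 1 gene (Utp20) was higher without overlap, as were 1487 of 16757 genes tested. In that setting Nop58 0.040, Dkc1 -0.058, Nop10 0.012, Wdr43 -0.011, Mybbp1a -0.046 and Max 0.013 changed sign. With each tumor left out in turn, genes called higher numbered between 0 and 1, and genes whose groups did not overlap between 0 and 2. The most were without control tumor 3 (Noc4l and Rrp12), where 1381 of 16757 genes were higher without overlap. Without Villin-Wls cKO tumor 2 it was 1 (Utp20), where 1227 were higher without overlap and 979 were called higher. Over the same fits, ranges that crossed 0 were Npm1 -0.079 to 0.013, Nop58 -0.092 to 0.023, Nop10 -0.080 to 0.012, Rrs1 -0.056 to 0.038, Wdr43 -0.040 to 0.070, Rrp9 -0.0025 to 0.21, Ddx21 -0.0095 to 0.079, Mybbp1a -0.046 to 0.14, Fbl -0.089 to 0.016, Wdr12 -0.16 to 0.0056 and Max -0.12 to 0.016. Beyond what these settings change by construction, the cause was not tested. Of all values recomputed, 1150 were kept. For single genes and ratios this means the same direction and side of the threshold, whereas counts and the median were allowed a small shift. Of the rest, 63 changed sign, 26 lost a call, 4 gained one, and 6 counts or medians moved.

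Whether tumors with one replicate number share more than that number is not given in the sources used here. Their deviations from the group means correlated by 0.064, -0.087, 0.063, 0.10 and 0.16. Pairs with unlike numbers were not compared, so these values cannot decide whether such tumors shared a batch. With the number as a replicate block, 0 of the 35 genes were called, their median change was 0.087, and 991 genes of all were called higher and 636 lower, against 1026 and 796 without it. Depth cannot be stated from FPKM. With 5 tumors a group, the changes of the 35 genes had a median SE of 0.10. Changes well above that size also went uncalled, such as Nop2 at 0.24 and Utp20 at 0.32 (adjusted p = 0.171 and 0.128, limma).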
